A study of Mus musculus with 10 samples.

Results

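Few transcripts of normoxic mouse hepatocytes passed a test for an effect of adeno treatment on these arrays. When arrays were compared as same-number pairs, 8 probe sets rose and 10 fell, and when the pairs were not used none passed. The steadiest rise was that of a probe set annotated to Mir686, a microRNA gene, and it was the only call of the 18 that also held after quantile normalization. The other rises included Mbd1, a reader of methylated DNA, the actin-severing protein cofilin (Cfl1) and the WNT co-receptor Lrp5. The falls included Zfp36l1, which promotes decay of AU-rich mRNAs, the SMAD partner Smad4 and the non-muscle myosin heavy chain Myh9. Chemokine and interferon-response genes gave no call in either direction. Of all 5689 genes tested, 0.123% were called higher and 0.158% lower, so lists of this size would mostly give none. Of 42 genes of the interferon list on the array, 15 were too dim to test, beside a filter at the 40th percentile of all probe sets.

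The study profiled RNA of mouse hepatocytes on Affymetrix arrays to follow the hypoxic response with and without HIF-1alpha, the oxygen-regulated transcription factor. The comparison here uses 4 of its 10 arrays, chosen by their titles: 2 normoxic arrays of untreated cells and 2 normoxic arrays of cells given an adeno treatment as a control. The other 6 arrays, 3 of hypoxic adeno-treated cells and 3 of hypoxic HIF-1alpha null cells, entered the fit to estimate the spread and are shown as levels. Of 12422 probe sets that are not array controls, 7453 passed the brightness filter, and they cover 5689 genes.

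The untreated group is described only as an untreated normoxic control, and the adeno group as its adeno-treated counterpart. The series title contrasts wild type with null cells, so the hypoxic adeno-treated group is taken as wild type; the sources used here do not give the genotype, strain or animals of the normoxic cells. They also leave out the vector and any gene it carried, its dose, the time of exposure and whether the null cells received adeno. Nothing says that arrays of a group came from separate cultures, so every p-value here measures the spread between these arrays, which may be technical.

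Adenoviral vectors enter cells through the coxsackie and adenovirus receptor (Cxadr) and integrins of the alpha-v family, and leave the endosome for the nucleus. Hepatocytes take up such vectors readily, which makes them a common way to deliver Cre recombinase or other genes to liver cells. Cells can sense the capsid and the viral DNA, and known responses include NF-kappaB-driven chemokines, type I interferon and its target genes, and acute phase proteins of the liver.

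The arrays were comparable in overall scale, with a trimmed mean of at least 199.6 and medians between 60 and 70.9 over all 10. Over the probe sets tested, the 4 normoxic arrays correlated with each other at 0.944 to 0.967. The 25 hepatocyte marker genes were all bright enough to test, and their summed intensity was 60300 and 69377 on the untreated arrays and 69224 and 89302 on the adeno arrays. Stellate cell and fibroblast markers (22 genes) summed to 12088 to 13076 untreated and 13133 to 13685 with adeno. Macrophage markers (18 genes) summed to 1323 to 1718 against 1063 to 1450, endothelial markers (15) to 1075 to 1199 against 744 to 906, biliary markers (9) to 653 to 1337 against 581 to 1160, and lymphocyte markers (17) to 481 to 701 against 518 to 592. Neutrophil and red cell markers (13), where Lcn2 dominates, summed to 6119 and 6366 untreated and 8379 and 10965 with adeno, without overlap. The stellate sums (higher with adeno) and the endothelial sums (lower with adeno) did not overlap between groups either. Eng supplied most of the endothelial sum, at 849.5 and 760.1 untreated and 593 and 522.5 with adeno. Of the 15 endothelial genes, 12 were too dim to test. The median log2 change of the tested stellate genes was -0.05, opposite in sign to the change of their sum. No marker of these lists was at 0 on every normoxic array. Fewer cells of a type and less RNA per cell cannot be told apart in such bulk samples. The part of these markers, and of the array controls below, in any result was not tested.

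The probe set for 18S ribosomal RNA (3′ end) read 155.8 and 304.5 on untreated arrays 1 and 2, and 314.3 and 3287 on adeno arrays 1 and 2. The second adeno array was therefore far above the other 3 normoxic arrays, although hypoxic arrays reached 8179. The ratio of 3′ to 5′ signal for actin was 1.52 and 2.96 untreated and 1.56 and 2.04 with adeno, so the groups overlapped. The array's spike-in probe set for phage P1 cre read 5375 and 5742 untreated and 4772 and 6194 with adeno, which also overlapped.

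The effect was estimated as the difference of mean log2 intensity, adeno minus untreated, after adding 4.7 to each value, with limma over all 10 arrays and Benjamini-Hochberg adjustment over all 7453 probe sets. In that fit 0 probe sets (0.0%) were higher and 0 (0.0%) lower at an adjusted p under 0.05. At an unadjusted p under 0.05, limma gave 309 higher and 310 lower, and the smallest adjusted p was 0.494. An exact permutation test of 2 arrays against 2 cannot give a two-sided p below 0.333, so single probe sets were tested only in the limma fits, which share the spread over all arrays and probe sets.

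Arrays with the same number in their titles deviated from their group means together, so the numbers were taken to pair the arrays. The normoxic number 2 arrays, however, correlated more with the hypoxic number 3 arrays than with the hypoxic number 2 arrays. With the number as a block in limma, 8 probe sets (0.107%) rose and 10 (0.134%) fell. The Mir686-annotated probe set had an adjusted p of 0.00123 in that limma fit, and the other 17 had 0.031 to 0.0496. With quantile normalization added to the block, 1 call remained, that of the Mir686 probe set, while the other 17 had adjusted p of 0.052 to 0.062. Leaving out 1 array at a time with the block gave 1 to 46 higher and 0 to 35 lower; the Mir686 probe set was called in 10 of 10 such fits, Lrp5 in 7 and the other 16 in 3 or 4. Without adeno array 2, which stands apart in its 18S signal, limma with the block called 1 higher and 0 lower.

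The pairs themselves showed a shared component across the array. The pair 1 and pair 2 differences correlated at 0.48 over the 7453 probe sets (not independent replicates), and 5175 of 7453 (69.4%) had the same sign in both. The standard deviation of the differences was 0.42 in pair 1 and 0.53 in pair 2, on the log2 scale. Both adeno arrays lay above both untreated arrays for 1837 probe sets (24.6%) and below them for 1815 (24.4%). With a change of at least 1.5-fold as well, the counts were 414 (5.55%) and 482 (6.47%).

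**Figure D1:**
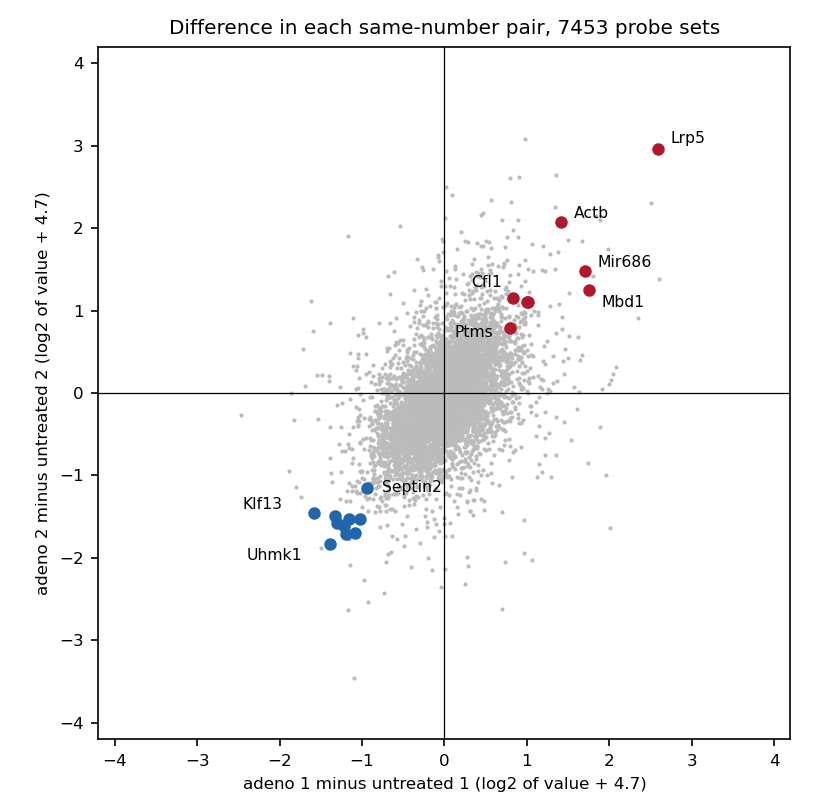
Log2 difference between adeno and untreated arrays in pair 1 (x axis) against pair 2 (y axis) for 7453 probe sets (grey points). The 8 probe sets that rose with the replicate block are red and the 10 that fell are blue; Lrp5 lies farthest out at 2.59 and 2.96.

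Of 798 genes with exactly 2 probe sets tested, 441 (55.3%) had both changes of the same sign, and the 2 changes correlated at 0.14 across these genes. Of the 18 genes that passed with the block, 5 had another probe set tested, and none of those other probe sets passed.

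The probe set that rose most steadily (101741_at) is annotated to Mir686, a microRNA gene, and the array was not built to measure a mature microRNA. In GRCm38.p6 the Mir686 hairpin at chr14:54616677-54616785, minus strand, lies within the Psmb5 gene at chr14:54614120-54617995, minus strand, which encodes a catalytic subunit of the proteasome. The hairpin is shown because it is the annotated target of the steadiest call, with the mature microRNA in capitals, 5′ to 3′ from RefSeq:
Mir686 hairpin: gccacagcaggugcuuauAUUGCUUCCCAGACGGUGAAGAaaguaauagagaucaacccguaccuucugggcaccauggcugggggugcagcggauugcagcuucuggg
This probe set read 1012 and 1212 on the untreated arrays and 3318 and 3395 on the adeno arrays. The groups were far apart, at 3.02-fold (log2 change 1.60, SE 0.12 with the block, n = 2 arrays a group, limma adjusted p = 0.00123 with the block). Both Psmb5 probe sets overlapped between groups, with changes of 0.04 and -0.16, so the transcript behind the annotated probe set is uncertain.

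Lrp5 (103806_at), a co-receptor for WNT ligands, had the largest rise of the 18, from 17.4 and 5.6 untreated to 128.5 and 75.4 with adeno. Its fitted change was 2.78 (SE 0.34 with the block, limma adjusted p = 0.031), and the untreated values were dim. Mbd1 (104340_at), which binds methylated CpG and represses transcription, read 234 and 313.9 untreated and 800.1 and 751.3 with adeno. That is a change of 1.5 (SE 0.21, limma adjusted p = 0.031 with the block), with both adeno arrays well above either untreated array. Mbd1 read 250 to 334 on the hypoxic adeno-treated arrays and 218 to 367 on the null arrays, ranges that overlap the untreated values.

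Ptms (95723_r_at), parathymosin, a small acidic nuclear protein, was among the brighter calls, at 2520 and 2791 untreated and 4394 and 4817 with adeno (change 0.79, SE 0.11 with the block). Cofilin (Cfl1, 99119_at), which severs actin filaments, read 2400 and 1560 untreated and 4279 and 3491 with adeno (change 0.996, SE 0.14). Under quantile normalization these changes were 0.63 and 0.88. A beta-actin probe set (Actb, 95705_s_at) rose from 375 and 392.2 to 1008 and 1668. The other Actb probe set read 2181.7 and 3109.8 untreated and 2094 and 2384 with adeno, a change of -0.22, so both disagreed.

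Man2c1 (97436_at), a cytosolic mannosidase that trims free oligosaccharides, read 308.6 and 310.1 untreated and 622.5 and 672.3 with adeno. Txnrd3 (161284_r_at), a thioredoxin-glutathione reductase, read 273.3 and 255.3 untreated and 559.2 and 556.5 with adeno. In both genes the replicates of a group were close together and the groups were separated by about 1 log2 unit (1.05 and 1.07).

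Among the falls, Zfp36l1 (93324_at) read 906.5 and 917 untreated and 364.2 and 304 with adeno. It fell by 1.44 on the log2 scale (SE 0.20 with the block, limma adjusted p = 0.031). Smad4 (160440_at), the common partner of receptor-activated SMADs in TGF-beta and BMP signalling, read 457.5 and 470.4 untreated and 202.4 and 159.9 with adeno. The untreated replicates of both genes were close to each other, and no adeno value approached them.

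Uhmk1 (96165_at), a kinase of splicing factors, had the largest fall of the 10, from 384.5 and 469 to 144.4 and 128.6 (change -1.61); its other probe set differed by -0.20. Rhoq (104725_at), a small GTPase of insulin-stimulated membrane traffic, read 286.9 and 398.2 untreated and 132.7 and 119.4 with adeno. Trp53inp2 (160376_at), an autophagy factor, read 635.3 and 1164 untreated and 270.6 and 377.8 with adeno. The hypoxic arrays were lower still for Trp53inp2, at 131 to 202. Septin2 (97543_at), a cytoskeletal GTPase, read 971.4 and 889.8 against 503.9 and 397.8, and C330007P06Rik (103695_f_at), a RIKEN transcript, 693.2 and 601.5 against 273.5 and 210.2.

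For Myh9 both probe sets were lower on the adeno arrays. The called probe set (102108_f_at) read 804.2 and 673.5 untreated and 348.6 and 201.9 with adeno. The other (100915_at) read 1317 and 1411 untreated and 720.9 and 659.2 with adeno, a change of -0.98 that did not pass with the block (limma adjusted p = 0.083). Klf13 (160617_at), a Krüppel-like transcription factor, read 190.1 and 102.1 against 60.2 and 34.2, while its other probe set differed by 0.06. Atxn2 (162399_f_at), an RNA-binding protein, read 640.2 and 455.6 against 312.1 and 155, while its other probe set differed by -0.03. For both genes the call rests on a probe set that its partner does not match.

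**Figure D2:**
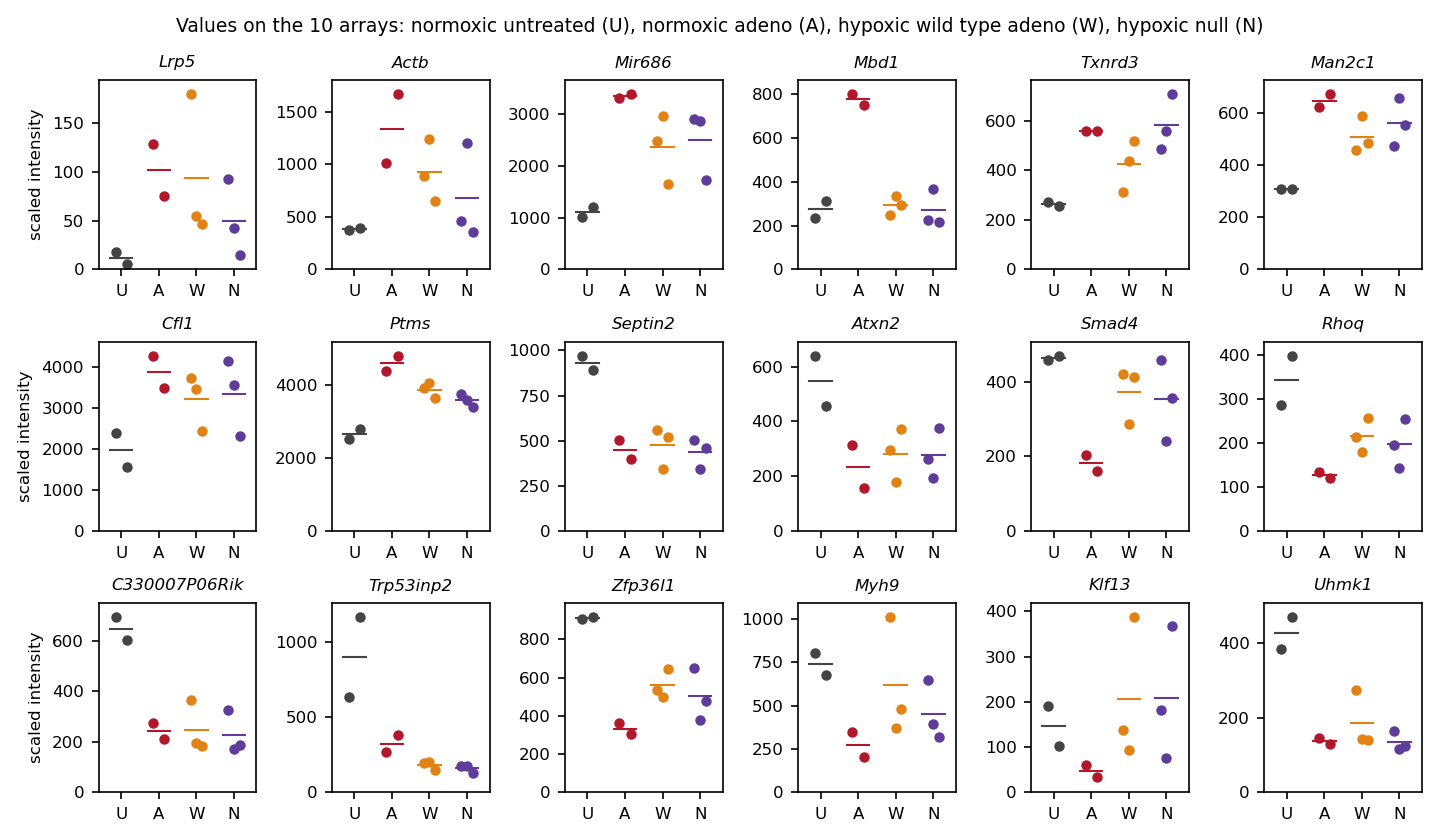
Scaled intensity (y axis, from 0) on each of the 10 arrays for the 18 probe sets that passed with the replicate block; points are arrays, bars are group means. The adeno arrays (A) lie apart from the untreated arrays (U) in every panel. Mbd1 is at the untreated level on all 6 hypoxic arrays (W, N), whereas the other 7 rises lie beyond it on all W arrays.

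Of the 8 rises, 7 had all hypoxic adeno-treated arrays beyond the untreated arrays, and 4 had all null arrays beyond them. Of the 10 falls, 8 did so in each hypoxic group. The hypoxic groups also differ from the untreated cells in oxygen, and the null group in genotype, so their levels are only set side by side. They are also read against the same untreated arrays that the calls used. The share of all 7453 probe sets that meet this rule was not counted, so these counts do not measure a repeated effect.

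Of the 18 genes, 13 have a promoter in the RefSeq table. The 250 bases before the start are shown for Ptms, the brightest of the rises, and for Zfp36l1, the fall with the smallest p without the block, in GRCm38.p6, 5′ to 3′ of the gene:
Ptms, chr6:124917947-124918196, minus strand: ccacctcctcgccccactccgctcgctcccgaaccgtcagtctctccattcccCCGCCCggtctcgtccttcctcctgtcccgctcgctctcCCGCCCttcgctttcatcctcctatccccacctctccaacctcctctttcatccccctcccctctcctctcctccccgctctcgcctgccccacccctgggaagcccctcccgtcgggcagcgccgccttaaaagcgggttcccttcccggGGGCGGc
Zfp36l1, chr12:80113014-80113263, minus strand: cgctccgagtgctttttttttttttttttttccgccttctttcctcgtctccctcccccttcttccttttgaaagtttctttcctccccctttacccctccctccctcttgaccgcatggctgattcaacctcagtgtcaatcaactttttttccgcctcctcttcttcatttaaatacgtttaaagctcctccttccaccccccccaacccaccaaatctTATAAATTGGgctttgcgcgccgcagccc
Capitals mark the motifs searched on both strands: the GC box as GGGCGG, the TATA element as TATAAA, the NF-Y element as CCAAT and the core of the cyclic AMP response element as TGACGT. The Ptms window held 3 GGGCGG matches and 69.2% G and C, and the Zfp36l1 window held 1 TATAAA and 1 CCAAT match, which overlap, at 48.4% G and C. Of all 32851 promoters, 32.7% held GGGCGG, 12.4% TATAAA, 33.8% CCAAT and 6.47% TGACGT, and the median content of G and C was 52.4%.

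The genes with the smallest p in each direction, 12 higher and 12 lower, included 10 of the 18; none of the 24 passed without the block (limma adjusted p = 0.494 for each). The others higher were Tfrc, the transferrin receptor for iron uptake, at 518.4 and 535.1 untreated and 1004 and 863.6 with adeno; Dhcr7, the last enzyme of cholesterol synthesis; the metallothionein Mt3; Chaf1b, a histone chaperone of replication; the hormone secretin (Sct); Dxo, an RNA decapping enzyme; and Bag6, a chaperone of membrane proteins. Mt3 read 807.5 and 700 untreated and 1299 and 1283 with adeno. The 4 Bag6 probe sets differed by 1.996, 1.28, 0.86 and -0.05, and the second Sct probe set by 0.05 against 1.35.

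The others lower were Trim13, a ubiquitin ligase of the endoplasmic reticulum; Txndc9, a thioredoxin-domain protein; the chromatin protein Nucks1; Baz2a, which silences ribosomal DNA; the prolidase Pepd; Rpn1, a subunit of the oligosaccharyltransferase; and the deubiquitinase Otud5. Trim13 read 114.6 and 118.7 untreated and 29.6 and 51.4 with adeno, and Nucks1 438.1 and 403.1 against 237.8 and 242.3. A second probe set differed by 0.09 for Nucks1, by -0.12 for Rpn1 (-1.07 in the named one), and by -0.45 and -0.59 for Otud5 (-1.18).

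The brightest probe sets differed from the rest in this comparison. The brightest 10% of the probe sets, with mean intensities of 1003 to 10713, had a median change of 0.12, against -0.07 in the dimmest 10%. Of the 100 brightest, 97 had a positive change and 85 had both adeno arrays above both untreated arrays, with a median of 0.38 (0.28 in pair 1 and 0.48 in pair 2). Under quantile normalization, which gives every array the same distribution, 55 of the 100 were positive and the median was 0.02. The brightest value on an array was 8039 and 8366 untreated, and 10967 and 14232 with adeno. For many of the bright genes named below, differences are given under both scalings. The remaining genes, some of them in the brightest 10%, are given under the deposited scaling only.

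**Figure D3:**
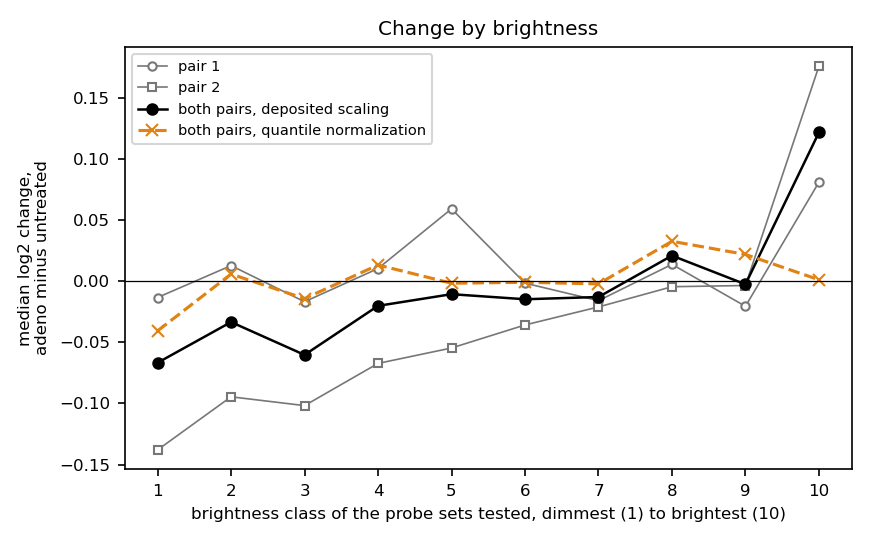
Median log2 change (y axis) in 10 equal classes of the 7453 probe sets by mean intensity (x axis), for both pairs together with the deposited scaling (black), for each pair (grey) and after quantile normalization (orange). The brightest class stands at 0.12 with the deposited scaling and at 0.00 after quantile normalization.

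The functions below are described with 1 probe set a gene, the brightest, and each list is read against all 5689 genes, of which both adeno arrays lay above both untreated for 1371 (24.1%) and below for 1405 (24.7%), with a median change of -0.01. With a change of at least 1.5-fold these counts were 274 (4.82%) and 347 (6.1%). Without the block, limma called 0 genes in every list. With the block it called 7 higher (0.123%) and 9 lower (0.158%) of the 5689 genes, of which 5 belong to the lists: Mbd1, Lrp5 and Cfl1 higher, and Zfp36l1 and Smad4 lower. Values of other genes are given as measured and did not pass the test. Over the 10 alternatives that can move the estimate (of 21), the sign of the median was constant for cell cycle, glycolysis, cholesterol, ribosomal protein, proteasome, lysosome, apoptosis, cytochrome P450, clock, insulin and MAPK, and TGF-beta and WNT genes, and for neutrophil and red cell markers; for each other list it turned in 1 to 5 of them.

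**Figure D4:**
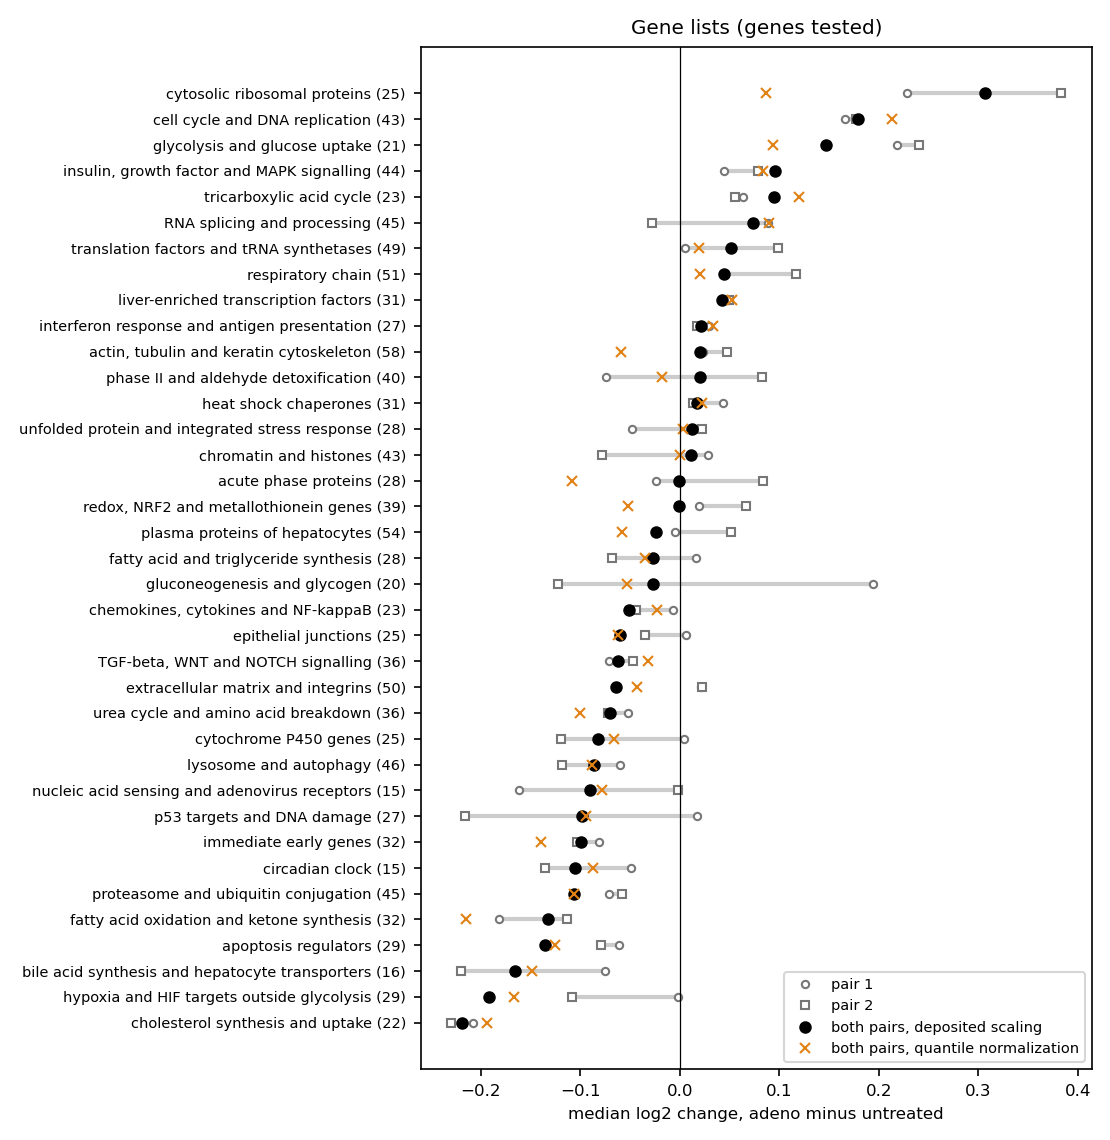
Median log2 change of the tested genes of each function list (number in brackets; lists of cell markers are not shown), for both pairs together (black), pair 1 (open circle), pair 2 (open square) and after quantile normalization (orange cross). Ribosomal proteins stand highest of these at 0.31 and move to 0.09 after quantile normalization, and cholesterol synthesis and uptake lowest at -0.22.

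Genes for entry and sensing of the virus were mixed. Of 15 tested genes, 3 lay above and 5 below the untreated range, and the median was -0.09. Irf7, a regulator of interferon genes, counts as below through its brighter probe set (-0.28). Its dimmer probe set had the opposite sign, at 43.8 and 17.5 untreated and 79.1 and 43.9 with adeno (0.96). Cxadr, the main adenovirus receptor, named here for its role after its values were seen, overlapped between groups, at 216.1 and 180 untreated and 173.2 and 220.3 with adeno. Itgav, the alpha-v integrin that aids internalisation, read 1437 and 1719 untreated and 966.1 and 912.2 with adeno. This was a change of -0.74, or -0.73 after quantile normalization, while a dimmer Itgav probe set overlapped between groups (-0.19). Traf6, an adaptor of Toll-like receptor signalling, read 109.4 and 113 against 69.9 and 59.8, and the kinase Ikbke 82.9 and 81.8 against 127 and 109.4. The early endosome GTPase Rab5a read 433.9 and 416.9 against 350.2 and 302.8.

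Interferon-response and antigen-presentation genes lay on both sides of 0. Of 27 tested, 14 had a positive and 13 a negative change, with 9 above and 10 below the untreated range and a median of 0.02, which turned negative with a stricter filter and without untreated array 2. Psmb9, an immunoproteasome subunit, read 75.9 and 63.3 untreated and 104.6 and 109.4 with adeno. Irf9, the DNA-binding part of the interferon-activated complex, went the other way, at 221.3 and 186.8 against 140.7 and 122.5. The receptor subunit Ifnar2 read 154.7 and 181.2 against 115.1 and 82.6, and the peptide transporter Tap1 86 and 93.9 against 149.7 and 111.4, with a second Tap1 probe set at -0.62. A further 15 genes, among them Ifit1, Ifit2, Ifit3, Mx1, Mx2 and Cxcl10, were too dim to test, with no value above 34.3 untreated or 53.4 with adeno.

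Tested chemokine, cytokine and NF-kappaB genes lay below the untreated range more often than above it. Of 23 tested, 2 (8.7%) were above and 8 (34.8%) below, beside 24.1% and 24.7% of all genes. The median of -0.05 turned positive with a stricter filter and without adeno array 2. Ccl2, which attracts monocytes, read 504.5 and 636.3 untreated and 292.4 and 355.7 with adeno, and Cxcl12 448.7 and 466.5 against 289.6 and 325. Tnfaip2, a TNF-induced gene, was above its untreated range, at 138.8 and 149 against 212.3 and 202.1. A further 18 genes, including Il6, Tnf, Il1b and Ccl5, were too dim to test, with no value above 44.3 untreated or 43.8 with adeno. Of their 18 probe sets, 4 lay above and 4 below the untreated range.

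Acute phase proteins of the liver depended on the scaling. Of 28 tested, 9 were above and 4 below the untreated range, with a median of 0.00, or -0.11 after quantile normalization. Haptoglobin (Hp), which binds free haemoglobin, read 6159 and 6651 untreated and 8670 and 11586 with adeno, a change of 0.65 that was 0.14 after quantile normalization. Hemopexin (Hpx) and metallothionein-2 (Mt2) differed by 0.59 and 0.63, or 0.16 and 0.02. Cebpb, a transcription factor of the acute phase, is less bright than Hp and is given under the deposited scaling only. It read 1500 and 1688 untreated and 2271 and 2349 with adeno.

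Cell cycle and DNA replication genes had a positive median in both pairs. Of 43 tested, 28 had a positive change, 14 (32.6%) lay above and 5 (11.6%) below the untreated range, and the median was 0.18 (0.17 in pair 1, 0.18 in pair 2, 0.21 after quantile normalization). The named members have opposed roles. Cdkn1a, the p21 inhibitor of cyclin-dependent kinases, read 488.2 and 201.4 untreated and 913.2 and 760.2 with adeno. Rrm2, the small subunit of ribonucleotide reductase, read 269.3 and 206.8 against 383.9 and 425, the helicase subunit Mcm2 134.5 and 143.7 against 194.9 and 211.2, and the D-type cyclin Ccnd3 305 and 328 against 475.8 and 437.6.

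Targets of p53 and DNA damage genes lay on both sides, with 6 above and 6 below the untreated range of 27 tested and a median of -0.10. Zmat3, an RNA-binding p53 target, read 381.6 and 337.4 untreated and 208.6 and 161.7 with adeno, and the antiproliferative gene Btg1 445.3 and 468.3 against 301.6 and 344.7. Chek1, a kinase of the DNA damage checkpoint, read 70.5 and 42.9 against 121.4 and 105. Of 29 apoptosis regulators, 6 lay above and 9 below, with a median of -0.14. Cytochrome c (Cycs) read 269.6 and 362.7 against 189.4 and 182.4, the initiator caspase Casp9 71.2 and 122.4 against 155.8 and 140.9, and its other probe sets differed by 0.26 and -0.29.

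Stress genes lay on both sides of 0. Of 28 genes for endoplasmic reticulum and integrated stress, 4 lay above and 10 below the untreated range, with a median of 0.01. Ddit3 (CHOP), a transcription factor of prolonged stress, read 216.6 and 156.5 untreated and 108.3 and 63.2 with adeno, and asparaginyl-tRNA synthetase (Nars) 862.5 and 758.2 against 479.5 and 411.5. Of 31 heat shock chaperones, 10 lay above and 6 below (median 0.02). The co-chaperone Stip1 read 391.1 and 304.2 against 626.2 and 535.8, and the constitutive chaperone Hspa8 2361 and 2094 against 2981 and 3108, a difference of 0.45, or 0.33 after quantile normalization. Of 39 redox, NRF2 and metallothionein genes, 11 lay above and 10 below (median 0.00). Maff, a small MAF protein, read 36.2 and 28.8 against 62.7 and 95.1. Immediate early genes gave 5 above and 9 below of 32 (median -0.10); Fos read 86.9 and 65.2 against 48 and 41.1, and Ier2 583.2 and 558.6 against 471.5 and 380.

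Drug metabolism genes also lay on both sides. Of 25 cytochrome P450 genes, 3 lay above and 5 below (median -0.08), and 9 further ones were too dim to test. Cyp4a10, a fatty acid hydroxylase under PPAR-alpha, read 298.7 and 542.2 untreated and 147.3 and 204.2 with adeno, and Cyp2d26 999.8 and 1212 against 661.4 and 717.4. Cyp3a11, the main drug-metabolising enzyme of its family, read 4308 and 4827 against 5122 and 6484, a change of 0.34 that was 0.07 after quantile normalization. Phase II enzymes gave 9 above and 9 below of 40 (median 0.02, or -0.02 after quantile normalization). The glutathione transferases Gstm1 and Gstp1 differed by 0.71 and 0.56, or 0.10 and 0.02 after quantile normalization, while the sulfotransferase Sult1a1 read 917.6 and 1268 against 599.6 and 800.4.

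Secreted plasma proteins gave 12 above and 11 below of 54 (median -0.02). Albumin (Alb) read 8039 and 8366 untreated and 10967 and 13761 with adeno, a change of 0.58 that turned to -0.07 after quantile normalization, and apolipoprotein A-I (Apoa1) differed by 0.54, or -0.01. Plasminogen (Plg) read 2329 and 2900 against 1454 and 1635 in the named probe set, while another differed by 0.17. Liver-enriched transcription factors gave 9 above and 10 below of 31 (median 0.04). Esrra, an orphan receptor of mitochondrial genes, read 319.8 and 330.8 against 518 and 630.8 (another probe set, -0.08), and Nr2f2 144.4 and 200.2 against 109 and 92.5. The 25 hepatocyte identity genes had a median of 0.08 that turned to -0.09 after quantile normalization.

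Glycolysis and glucose uptake genes had a positive median in both pairs. Of 21 tested, 9 (42.9%) lay above and 2 (9.5%) below the untreated range, with a median of 0.15 (0.22 in pair 1, 0.24 in pair 2, 0.09 after quantile normalization). The liver pyruvate kinase Pklr read 204.2 and 236.3 untreated and 306.3 and 427.5 with adeno, and the muscle-type Pkm 2626 and 2565 against 3522 and 3665, a difference of 0.47, or 0.35 after quantile normalization. Phosphoglycerate mutase (Pgam1) read 1967 and 2340 against 2626 and 3484 (0.50, or 0.38), and aldolase A (Aldoa) differed by 0.42, or 0.15 after quantile normalization. Pkm, Pgam1 and Aldoa are among the brightest 10% of the probe sets. Of those 746 probe sets, 296 lay above and 108 below the untreated range. Gluconeogenesis and glycogen genes gave 2 above and 2 below of 20 (median -0.03, with 0.19 in pair 1 and -0.12 in pair 2).

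Cholesterol genes had the lowest median of the function lists. Of 22 tested, 11 (50%) lay below the untreated range and 5 (22.7%) above, with a median of -0.22 (-0.21 in pair 1, -0.23 in pair 2). Squalene synthase (Fdft1) read 401.6 and 403.2 untreated and 261.2 and 258.6 with adeno, and the sterol oxidase Msmo1 348.9 and 389.2 against 250.7 and 198.8. The squalene epoxidase Sqle, named after its values were seen, read 1113 and 1300 against 763.8 and 815.5. Unlike these, Dhcr7 read 94.4 and 96.1 untreated and 186 and 191.2 with adeno. The cholesterol exporter Abca1 read 256.5 and 325.5 against 124.1 and 137.7, while a dimmer Abca1 probe set differed by 0.19.

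Bile acid synthesis and transporter genes gave 1 above and 5 below of 16 (median -0.17). Baat, which conjugates bile acids, read 635.7 and 500.6 untreated and 362.4 and 315.5 with adeno. Fatty acid oxidation and ketone genes gave 3 (9.4%) above and 11 (34.4%) below of 32, with a median of -0.13, positive without adeno array 1. Cpt1a, the entry step of mitochondrial oxidation, read 1014 and 1216 against 847.5 and 682.4, and the dehydrogenase Acadl 196.9 and 249.9 against 146 and 132.5. Fatty acid and triglyceride synthesis gave 6 above and 3 below of 28 (median -0.03), with the desaturase Scd2 at 417.3 and 662.2 against 326.4 and 275.5.

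Amino acid breakdown and the urea cycle gave 6 above and 12 below of 36 (median -0.07). Methylmalonyl-CoA mutase (Mmut) read 139.8 and 175.5 untreated and 78.8 and 81.6 with adeno, and the peroxisomal transaminase Agxt 105.9 and 142.8 against 58.9 and 83.3. In the mitochondrion, 51 respiratory chain genes gave 10 above and 6 below (median 0.04) and 23 tricarboxylic acid cycle genes 7 above and 4 below (median 0.10). Citrate synthase (Cs) read 577.4 and 488.7 against 760.2 and 932.7, and the dehydrogenase Idh2 320.8 and 330.8 against 448.3 and 474.5. Dld and Pdha1, next by p, went the other way. Dld read 664.1 and 631 against 542 and 402. Pdha1 read 1087 and 1072 against 948 and 800.2, a difference of -0.31, or -0.30 after quantile normalization.

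**Figure D5:**
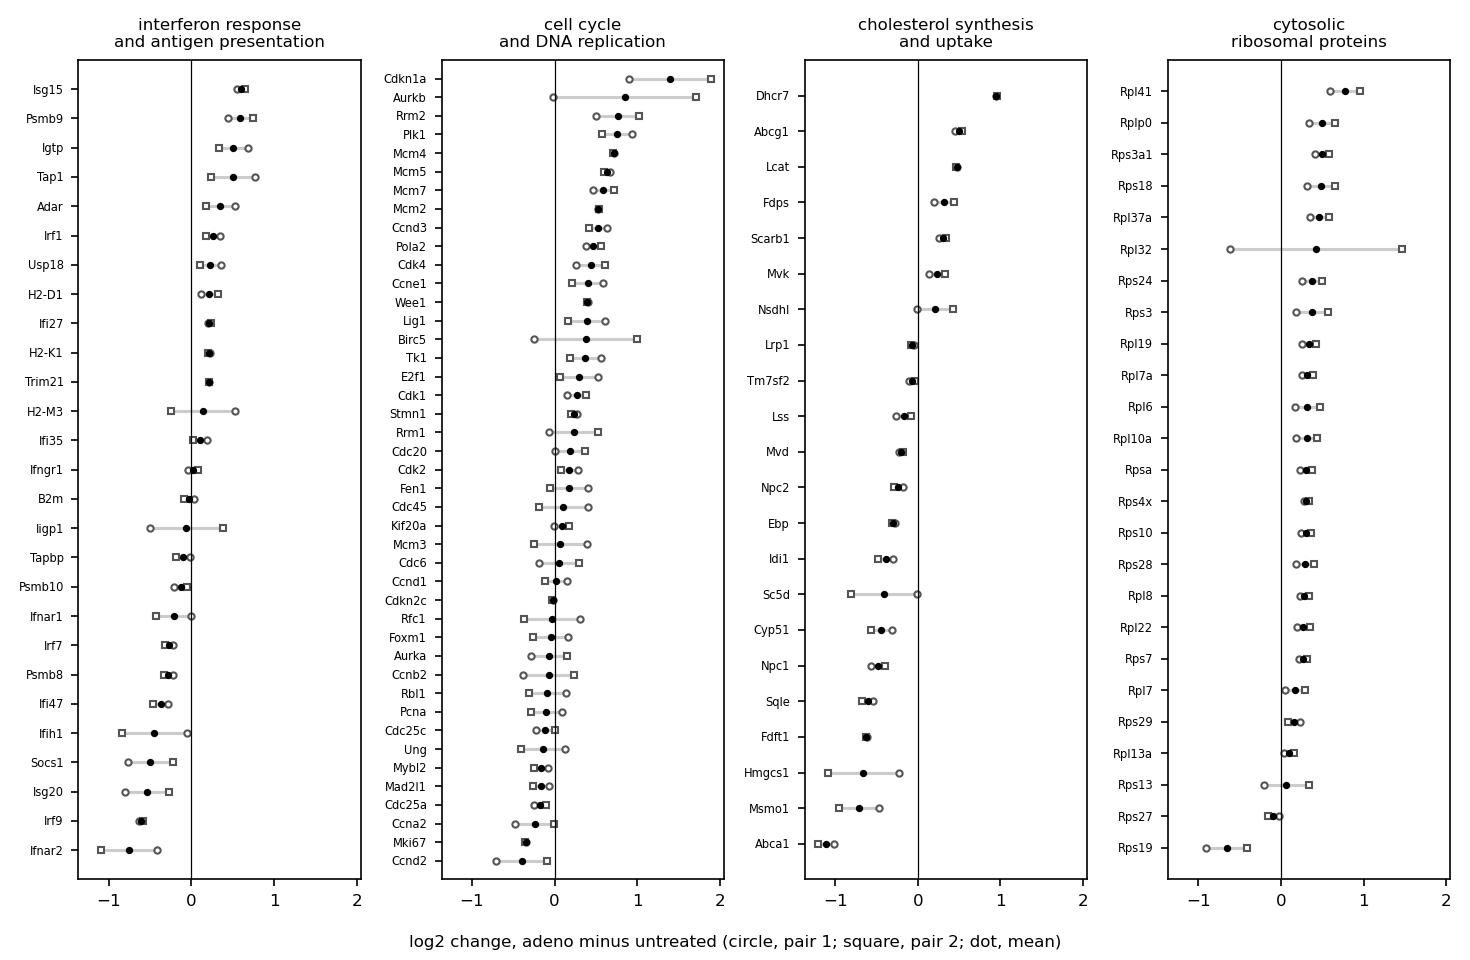
Log2 change (x axis) of each tested gene (rows) of 4 lists, in pair 1 (open circle), pair 2 (open square) and as their mean (dot). Interferon genes spread to both sides of 0, cell cycle and ribosomal protein genes lie mostly to the right (28 of 43 and 23 of 25) and cholesterol genes mostly to the left (15 of 22).

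Cytosolic ribosomal proteins had the highest median of the function lists, and they are among the brightest genes on the array. Of 25 tested, 19 (76.0%) lay above and 2 (8.0%) below the untreated range, with a median of 0.31, beside 0.38 for the 100 brightest probe sets, and 0.09 after quantile normalization. Rpl41 read 6908 and 7312 untreated and 10422 and 14232 with adeno, a change of 0.78 that was 0.23 after quantile normalization. Rplp0, of the ribosomal stalk, differed by 0.50, or 0.03. Translation factors and tRNA synthetases gave 12 above and 13 below of 49 (median 0.05). Eif2b1, a subunit of the eIF2 exchange factor, read 287.5 and 154.6 against 415.5 and 495.8, and Eef1a1 differed by 0.52, or -0.01 after quantile normalization.

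RNA splicing and processing genes gave 12 above and 8 below of 45 (median 0.07), with Hnrnpl at 373.5 and 258.2 untreated and 739 and 475.1 with adeno, and Hnrnpc at 131 and 132.3 against 78.6 and 89.9. Chromatin and histone genes gave 10 above and 8 below of 43 (median 0.01); besides Mbd1, the Polycomb protein Suz12 read 75.4 and 50.4 against 41.7 and 13.2. Proteasome and ubiquitin genes gave 5 (11.1%) above and 14 (31.1%) below of 45 (median -0.11). Psma7, a core subunit, read 1673 and 1673 against 1131 and 1369, and Psmb2 went the other way, at 912.6 and 687.4 against 1178 and 1285. Lysosome and autophagy genes gave 8 above and 16 (34.8%) below of 46 (median -0.09), among them the peptidase Tpp1 at 560.7 and 658.3 against 370.5 and 360.

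Cytoskeletal genes lay on both sides, with 15 above and 13 below of 58 and a median of 0.02, or -0.06 after quantile normalization. Besides Cfl1 and Myh9, the actin cross-linker Actn4 read 1346 and 1391 untreated and 767.2 and 775.5 with adeno, and the actin-binding thymosin Tmsb10 4516 and 4546 against 6259 and 7652, a difference of 0.61, or 0.32 after quantile normalization. Epithelial junction genes gave 5 above and 8 below of 25 (median -0.06). Desmoplakin (Dsp) read 657 and 823.9 against 371.6 and 400.6, and the tight junction scaffold Tjp1 299.6 and 245.1 against 171.6 and 144.2. Extracellular matrix and integrin genes gave 11 above and 5 below of 50 (median -0.06). Tgfb1, dim when untreated at 15.5 and 15.9, read 110.3 and 96.9 with adeno, and its limma adjusted p was 0.054 with the block.

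Insulin, growth factor and MAPK signalling genes gave 15 (34.1%) above and 8 (18.2%) below of 44, with a median of 0.10. The kinase Akt2 read 367.1 and 403.1 untreated and 513.5 and 584.4 with adeno, and Stat5b 24.1 and 24.4 against 55 and 51.4. TGF-beta, WNT and NOTCH genes gave 5 above and 8 below of 36 (median -0.06). Beside Lrp5 and Smad4, the related co-receptor Lrp6 read 200.1 and 198.4 against 133.2 and 111.9, and the activin receptor Acvr2a 92.5 and 75.1 against 46.7 and 28.2. The log2 differences of Lrp5 and Lrp6 thus had opposite signs, and that of Lrp6 did not pass with the block (limma adjusted p = 0.114).

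Hypoxia and HIF target genes outside glycolysis gave 5 above and 8 below of 29 at normal oxygen (median -0.19, 0.00 in pair 1 and -0.11 in pair 2). Besides Tfrc, the growth-arrest gene Ndrg1 read 848.8 and 1072 untreated and 1282 and 1585 with adeno, while the cyclin Ccng2 read 258.3 and 223.7 against 139.7 and 107. Circadian clock genes gave 4 above and 3 below of 15 (median -0.11), with the repressor Cry1 at 211.7 and 254.7 against 146.6 and 140.8.

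Of the lists for other cells, only that for neutrophils and red cells had most of its tested genes above the untreated range, 4 of 6, with 7 further genes too dim to test. Its median was 0.59 (0.44 after quantile normalization). Haemoglobin alpha (Hba-a1) read 33.3 and 32.5 untreated and 70.1 and 108.9 with adeno. Lcn2, which hepatocytes also make in the acute phase, supplied most of the summed intensity and differed by 0.62, or 0.13 after quantile normalization, and another Lcn2 probe set differed by -0.39. The stellate, macrophage, endothelial, biliary and lymphocyte lists had 2, 2, 0, 0 and 1 genes above and 2, 2, 1, 1 and 0 below, of 21, 10, 3, 5 and 5 tested.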

How the data were processed

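The deposited table holds linear scaled intensity values of 12488 probe sets on 10 arrays; the sources used here do not say how the authors made them. Per the platform annotation, 10855 probe sets have 1 gene symbol, 396 several and 1237 none, and 10839 symbols matched GRCm38.p6 gene names. The 66 control probe sets were left out, as were probe sets with a mean over all arrays under the 40th percentile of the rest (40.1), and log2(value + 4.7) was taken, 4.7 being the 10th percentile of all values. Fold changes on this scale understate changes of dim genes. limma 3.58.1 in R 4.3.3 fitted 4 group means over 10 arrays letting the variance follow intensity, with 6 residual degrees of freedom, and was tested on simulated data. The number of arrays limits the precision. Same-number arrays deviated from their group means together in 13 of 13 pairs across groups (r of at least 0.103). For the normoxic arrays r was 0.378. Title numbers therefore also entered as a block. In a group of 2 arrays the deviations mirror each other, so these pairs are not independent. Untreated array 2 had r of 0.154 and 0.253 with hypoxic adeno-treated and null arrays 3, against 0.103 and 0.154 with arrays 2. Adeno array 2 had 0.177 and 0.193, against 0.173 and 0.129.

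Named genes are the 12 of smallest p in each direction without overlap between groups, up to 4 of smallest p in a list, and the calls with the block; others are said to be chosen after their values were seen. Members and lists were chosen with earlier results of these data known. Alternatives were other offsets, filters, scalings, sample sets, no trend, the block, and leaving out each array. Promoter and microRNA sequences are from RefSeq.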

Additional observations from a re-analysis of the deposited data

Results flagged for a closer look

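The 18S ribosomal RNA control probe set (3′ end), which no comparison used, read above both untreated arrays on both adeno arrays, at 314.3 on adeno array 1 and 3287 on adeno array 2, against 155.8 and 304.5 untreated. On the hypoxic arrays it ranged from 406.6 to 8179.

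The spike-in probe set for phage P1 cre, relative to that for BioDn (3′ ends of both), was 5.82, 5.75 and 4.99 on the 3 hypoxic null arrays. It was 2.998 and 3.21 on the untreated arrays, 3.03 and 2.56 on the normoxic adeno arrays and 2.43 to 2.95 on the hypoxic adeno-treated arrays.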

How the results depend on the processing

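With the replicate block the counts of 0 higher and 0 lower became 8 and 10, and with only the 4 normoxic arrays and the block, at 1 residual degree of freedom, 431 and 471. They stayed at 0 under the other alternatives, with a smallest adjusted p of 0.0507 without the hypoxic number 3 arrays. With the block, leaving out 1 array gave 1 to 46 higher and 0 to 35 lower: 27 and 14 without untreated array 1, 1 and 0 without untreated array 2, 1 and 1 without adeno array 1, 1 and 0 without adeno array 2, 23 and 28, 2 and 1, and 3 and 0 without hypoxic adeno-treated arrays 1, 2 and 3, and 46 and 35, 7 and 8, and 3 and 0 without null arrays 1, 2 and 3. Both number 3 arrays left out gave 3 and 0, and quantile normalization with the block 1 and 0. These fits with the block, except that on all 10 arrays and that on the 4 normoxic ones, were chosen after seeing the data; the cause of their differences was not tested.

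Without a filter, 2801 probe sets were below the untreated range and 793 and 932 were above and below by 1.5-fold; at the 60th percentile, 1156, 236 and 252. Leaving out 1 array gave 1837 to 2871 above, 1815 to 2945 below, and 414 to 679 above and 482 to 877 below by 1.5-fold.
Quantile normalization reversed Alb (-0.068), Eef1a1 (-0.011) and Apoa1 (-0.0058). Of 3478 single results under alternatives, 3334 kept direction and side of the threshold and 141 newly passed with a block, 123 of them on the 4 normoxic arrays. Because nothing passed in the fit without the block, keeping the side of the threshold meant staying uncalled. The count therefore does not measure how stable the calls with the block are.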
